A study of Drosophila melanogaster with 2 samples.

Results

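HLH3B, a transcription factor of the basic helix-loop-helix class (bHLH), belongs with vertebrate Tal1, and the genes described here are its own and 7 for proteins of the complex that Tal1-type factors form. The genes were HLH3B, da, emc, Bx, Chi, Ssdp, tup and ap, listed by name without the use of any measured value. They were picked with earlier results of these data known, and made up 8 of the 18164 annotated genes on the main chromosome arms. All 8 symbols were found in the annotation. Binding was mapped by chromatin immunoprecipitation and sequencing (ChIP-seq) in whole Drosophila melanogaster embryos, 8 to 24 hours old, of the strain HLH3B-GFP. That age is the one in the source description, and a separate age field of the labels holds another value that could not be read as an age. These flies carry an insertion that produces HLH3B fused to eGFP, and the fusion was pulled down with an antibody to GFP. The 2 biological replicates formed 1 group, with nothing to contrast it with, so the lists give a map and its repeat, not a contrast. The labels do not say how many cells of the embryo make the fusion protein or whether an untagged HLH3B was present, and the control experiment was not analysed here.

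In vertebrate blood and endothelial cells a Tal1-type bHLH protein pairs with a broadly expressed E protein and binds an E-box. A LIM-only protein joins this pair to a GATA factor and to an LDB-type scaffold, which an SSDP-type protein stabilises. In the fly, da encodes the E protein and emc an Id-type inhibitor that pairs with bHLH proteins but lacks the basic region needed to hold DNA. Bx (Beadex) encodes a LIM-only protein, Chi (Chip) the LDB-type scaffold and Ssdp its partner. The LIM-homeodomain proteins tup (tailup, the fly Islet) and ap (apterous) bind DNA and work through Chi, and Bx competes with ap for Chi in the wing. The genes of such factors are often themselves targets of the factors they encode. The map is of HLH3B alone, so it bears on this only at the HLH3B gene itself. At the other genes it shows where HLH3B peaks lie, and a peak alone does not show regulation.

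The sequences below come from positions on which the results turn, read from the Release 6 reference genome on the plus strand, 5′ to 3′, within 100 bp of each summit. Capitals mark E-boxes (CANNTG) and the GATA motif, which is GATA with A or T before it and A or G after it, on either strand. The emc (chr3L:751784-751984) and Bx (chrX:18546880-18547080) sequences are intronic. The tup sequence (chr2L:18881462-18881662) lies upstream of tup, and the Ssdp sequence (chr3R:18197283-18197483) is in an intron and belongs to a candidate that the authors' sets leave out. Both tup and Ssdp are transcribed from the minus strand.
emc: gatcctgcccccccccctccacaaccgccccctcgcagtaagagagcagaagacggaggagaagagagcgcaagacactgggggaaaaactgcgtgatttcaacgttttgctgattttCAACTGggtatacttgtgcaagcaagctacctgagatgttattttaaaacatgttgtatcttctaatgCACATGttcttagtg
Bx: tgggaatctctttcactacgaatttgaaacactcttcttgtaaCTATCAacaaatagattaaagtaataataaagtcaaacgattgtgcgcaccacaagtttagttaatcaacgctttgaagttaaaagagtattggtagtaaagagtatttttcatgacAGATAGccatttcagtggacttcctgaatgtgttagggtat
tup: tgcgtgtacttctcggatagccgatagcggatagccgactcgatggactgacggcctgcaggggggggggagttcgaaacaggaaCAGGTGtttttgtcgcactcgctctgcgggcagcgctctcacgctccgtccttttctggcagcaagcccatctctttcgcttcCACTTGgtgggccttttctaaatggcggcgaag
Ssdp: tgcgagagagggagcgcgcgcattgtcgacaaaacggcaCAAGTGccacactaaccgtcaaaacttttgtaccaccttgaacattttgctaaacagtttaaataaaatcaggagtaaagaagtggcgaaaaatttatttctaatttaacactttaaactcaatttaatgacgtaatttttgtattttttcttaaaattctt

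HLH3B peaks were found at the E-protein gene da, at the inhibitor gene emc and at the LIM-only gene Bx, and at no other member. A gene was called when a summit of the main set lay between its 3′ end and 2000 bp upstream of its start, and this held for 3 of the 8 members and for 20.3% of all genes. The main set is the authors' conservative list of 3846 peaks whose irreproducible discovery rate (IDR, which is low where a peak holds its rank between repeats) was at most 0.01 by their scores. The lists of a single replicate also carry IDRs, which cannot measure agreement between the 2 biological replicates. The IDRs of different lists are therefore not like values, and each is read only within its list. The larger of the authors' series-level sets, with 5814 peaks, added tup, for 4 of 8 members against 27.3% of all genes. The replicates taken alone called 2 members (da and Bx) in replicate 1, where 20.7% of all genes were called, and 3 (da, emc and Bx) in replicate 2, where 19.7% were. No test was made over so short a list, whose members were picked with earlier results of these data known.

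Long genes hold more room for a peak, and the members differed widely in length. Of genes under 2 kb, the class of HLH3B, 12.4% had a main-set site. The 4 members between 2 and 10 kb were da, emc, Chi and Ssdp, and 2 of them had a site, against 24.6% of the 5747 genes of that length. Neither of the 2 members between 10 and 50 kb, tup and ap, had one, against 46.4% of such genes. Bx, at 57.4 kb, had a site, as did 59.2% of the 319 genes over 50 kb.

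**Figure D1:**
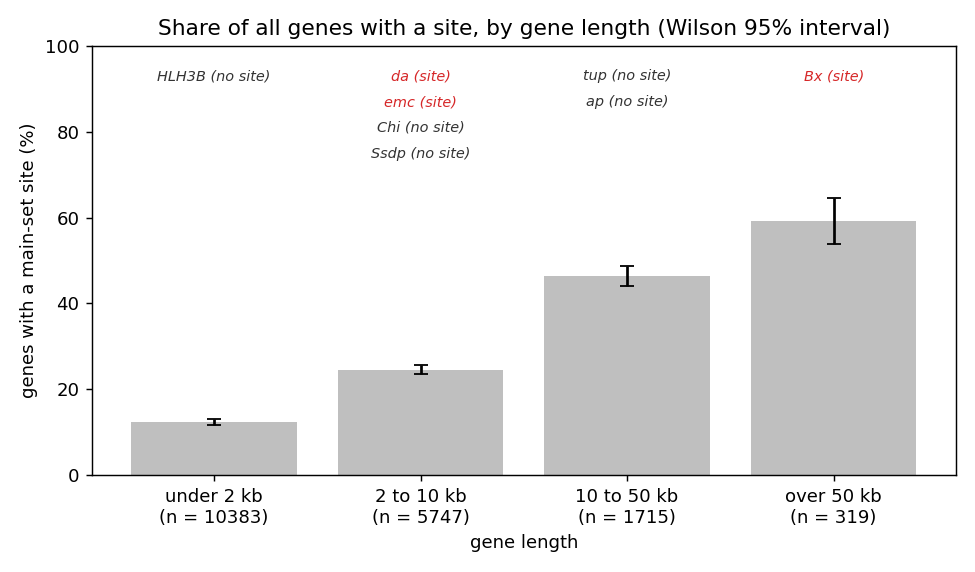
The vertical axis shows the percentage of all genes with a main-set site in each class of gene length, with Wilson 95% intervals (counting error only), and the names above the bars place the 8 members in their class. The share rose from 12.4% in the shortest class to 59.2% in the longest, and da, emc and Bx are the members with a site.

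The HLH3B gene itself was among the emptiest of the members. It has a single transcript and occupies positions 2680199 to 2681723 of X (minus strand). The main list of candidates, which ranks 90471 peaks before any threshold, held 0 candidates in its 3.52 kb window, as did the larger list and replicate 2. By the same rule 6 of the 8 members, and 74.0% of all genes, held a candidate of the main list, and 7 of the 8, and 89.3% of all genes, held one of the larger list. Of genes under 2 kb, the class of HLH3B, 33.4% held none in the main list. Replicate 1 had 2 candidates in the gene body, with signals of 17.8 and 5.73, of which the stronger ranked 33419 of 93496 and had an IDR of 0.686. The candidate-free stretch around the HLH3B start spanned 19.3 kb in the main list, 15.6 kb in the larger list, 20.0 kb in replicate 2 and 3.18 kb in replicate 1. On X the median distance between neighbouring candidates of the main list was 660 bp, and 118 of 18194 such distances were as wide as the one at HLH3B. That count understates how often a position on X lies in so wide a stretch, because wide stretches cover more of the arm. Whether the lists used here are complete over such empty stretches, at HLH3B, da or ap, is not known. The nearest main-set summits lay 22.2 kb upstream, 28 bp upstream of the start of Ugalt, where the signal of 2837 was the highest of the main set, and 32.5 kb downstream, 1017 bp downstream of a start of the kinase gene sgg (signal 105).

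The da site lay at the promoter. The gene starts at 10388105 on 2L, and all 4 of its transcripts share that start. The main-set peak had its summit 85 bp before the gene's first base, and the summits in replicates 1 and 2 lay 99 and 105 bp upstream. Its signal, a value on the authors' own scale that is read only within a list, was 109, which ranked 2563 of 3846. In the replicate sets the peak ranked 2939 of 3992 in replicate 1 (signal 57.5) and 3002 of 3546 in replicate 2 (signal 46.5), so both replicates placed it in the weaker part of their sets. Among genes of its length class, 19.9% had a candidate at least as strong. A second candidate 1642 bp upstream of the start (signal 64.2) missed the threshold, with an IDR of 0.0283 in the main list and 0.0125 in the larger list. Replicate 1 listed a candidate of signal 30.4 near that place (IDR 0.212) and replicate 2 listed none.

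The replicates differed strongly in how many candidates surrounded da. Within 100 kb on either side replicate 1 held 278 candidates (136 per 100 kb) and replicate 2 held 27 (13.2 per 100 kb), where the averages over the arms were 69.7 and 63.0. Replicate 2 listed no candidate between 31.4 kb upstream of the start and the edge of that span, and the main list followed it, with 77 candidates and an empty stretch from 32.6 kb upstream. The next main-set site upstream, 6.01 kb from da and 170 bp upstream of the start of CG5096 (signal 375), ranked 329 in the replicate 1 set. The replicate 2 set held no site there, and its nearest upstream site was 187 kb away. The part of this difference in the calls near da was not tested.

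The emc site was intronic and weaker. The gene runs from 749400 to 753492 on the plus strand of 3L and lies within the body of hng3. The main-set peak (751716 to 752051) had its summit 2484 bp downstream of the emc start, a signal of 77.5 and rank 3527 of 3846. Replicate 2 called it, at rank 3139 of 3546 with a signal of 44.0. Replicate 1 had the same position as a candidate with a signal of 38.1 and rank 6312, whose IDR of 0.0117 just missed the threshold. In replicate 1 the strongest candidate of emc was another one, 62 bp upstream of the start, with a signal of 50.6 and an IDR of 0.145. The emc call therefore rested on replicate 2 among the single-replicate sets. Further main-set summits lay 3.69 kb upstream (signal 94.3) and 9.02 kb downstream (signal 207).

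Bx carried the strongest site of the 8 genes. It is the longest member, from 18515428 to 18572809 on the plus strand of X, with 3 annotated starts. The peak (18546892 to 18547050) lay in an intron, 12317 bp downstream of the start shared by Bx-RA, Bx-RC and Bx-RD. Its signal of 247 ranked 815 of 3846. The replicates placed it at similar ranks, 875 of 3992 (signal 123) and 818 of 3546 (signal 124). Their summits lay 7 and 0 bp from that of the main set. Even so, 23.8% of genes over 50 kb had a candidate at least as strong. The peak was narrow, at 159 bp against a median width of 336 bp, and 12.4% of main-set peaks were as narrow. In the replicate sets it was 101 and 94 bp wide, against medians of 320 and 304 bp.

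The larger set added 2 weaker intronic sites to Bx. That 7390 bp downstream of the same start had a signal of 61.5 (rank 5234 of 5814) and was called in replicate 1, with a signal of 43.9. In replicate 2 the nearest candidate had a signal of 12.2 and an IDR of 0.913. The other lay 556 bp upstream of a tRNA gene, tRNA:Pro-CGG-2-1, inside Bx (signal 56.0, rank 5463), and neither replicate called it alone. Next to Bx, a main-set site of signal 334 lay 8.12 kb upstream, 1907 bp upstream of a start of Wnt5. In the other direction the next main-set summit lay 262 kb away, and the next of the larger set 40.8 kb away.

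The scaffold gene Chi had no site in any of the 4 thresholded lists. It lies on 2R from 24031538 to 24033943 on the minus strand. Its strongest candidate in the main list had a signal of 47.3 and ranked 9086 of 90471, with an IDR of 0.262. The strongest candidates in the replicates lay at different places in the gene, 580 bp downstream of the start in replicate 1 (signal 26.5) and 1737 bp downstream in replicate 2 (signal 28.0). Of genes of its length, 45.9% had a candidate at least as strong, so Chi was near the middle of its class. The nearest main-set summit was 3.09 kb beyond its 3′ end, 338 bp downstream of a start of HSPC300 (signal 46.8), and the nearest upstream, 11.4 kb away, lay 1452 bp downstream of a start of tsr, an actin-binding protein gene (signal 393).

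Ssdp was called in no thresholded list, although a candidate in it passed the threshold. The gene lies on 3R from 18192494 to 18199595 on the minus strand, and all 4 candidate lists held an intronic candidate about 2.2 kb downstream of the start that passed the IDR threshold. Its signal was 125 in the main list (18197215 to 18197550, rank 2288, IDR 0.00092), and it was 74.4 in replicate 1 and 44.1 in replicate 2, with IDRs of 0.000678 and 0.00052. This signal was above that of the da site, and 17.1% of genes of its length had a candidate at least as strong. A second candidate, in the 5′ UTR 820 bp downstream of the start, had a signal of 93.8 and passed the threshold in the larger list (IDR 0.00162) and, with a signal of 69.1, in replicate 1 (IDR 0.00176), but not in the main list (IDR 0.793). Replicate 2 listed no candidate near that place. The authors' sets leave out 71 of 3917 passing candidates of the main list (1.81%), and the deposited notes name 1 more input for the sets than for the candidate lists. Its part in the absence of the Ssdp candidates was not tested. The nearest main-set sites were 3.52 kb beyond the 3′ end, at the start of the Mediator gene MED17 (signal 238), and 20.8 kb upstream at CG7988 (signal 994).

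The LIM-homeodomain genes tup and ap were without main-set sites and differed from each other. In tup (2L 18859507 to 18881261, minus strand) a peak 301 bp upstream of the start was called in the larger set, with a signal of 61.6 and rank 5227 of 5814. In the main list it missed the threshold, with an IDR of 0.0359. Both replicates had a candidate within 5 bp of its summit, with signals of 31.9 and 24.4. Within their own lists these candidates missed the threshold, with IDRs of 0.681 and 0.335. Of genes between 10 and 50 kb, 56.2% had a candidate of the main list at least as strong as that of tup. A stronger main-set site (signal 270.0) lay 1.71 kb beyond the 3′ end of tup, 118 bp upstream of the start of CG10602.

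The ap gene lay in a region without thresholded peaks, where the replicates differed in their candidates. It is on 2R from 5706202 to 5727525, on the minus strand. Neither the main list nor replicate 2 held a candidate in its 23.3 kb window, whereas 10.7% of genes of its length had none in the main list. The larger list held 3, the strongest with a signal of 33.0 and an IDR of 0.713. Replicate 1 held 9, the strongest with a signal of 26.6 and an IDR of 0.486. The candidate-free stretch at the ap start was 41.9 kb in the main list and in replicate 2, 20.7 kb in the larger list and 608 bp in replicate 1. Within 100 kb of ap on either side there were 0 sites of the main set and 0 of the larger set, and the main list held 26.2 candidates per 100 kb against 67.0 over the arms. Replicate 2 held 28.0 per 100 kb there against 63.0 over the arms, while replicate 1 held 59.2 against 69.7. The nearest main-set summit lay 325 kb upstream, 1961 bp downstream of a start of CCHa2-R, and no main-set summit lay on the other side along the arm. Spans with the same flanks held 36 main-set sites around emc, 20 around Chi, 13 around HLH3B and 10 around tup. Those around Ssdp, da and Bx held 8, 7 and 3. Per 100 kb these were 17.6 sites around emc, 9.88 around Chi, 6.45 around HLH3B and 4.51 around tup. The rates around Ssdp, da and Bx were 3.86, 3.41 and 1.17. The arms averaged 2.87 main-set sites per 100 kb.

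**Figure D2:**
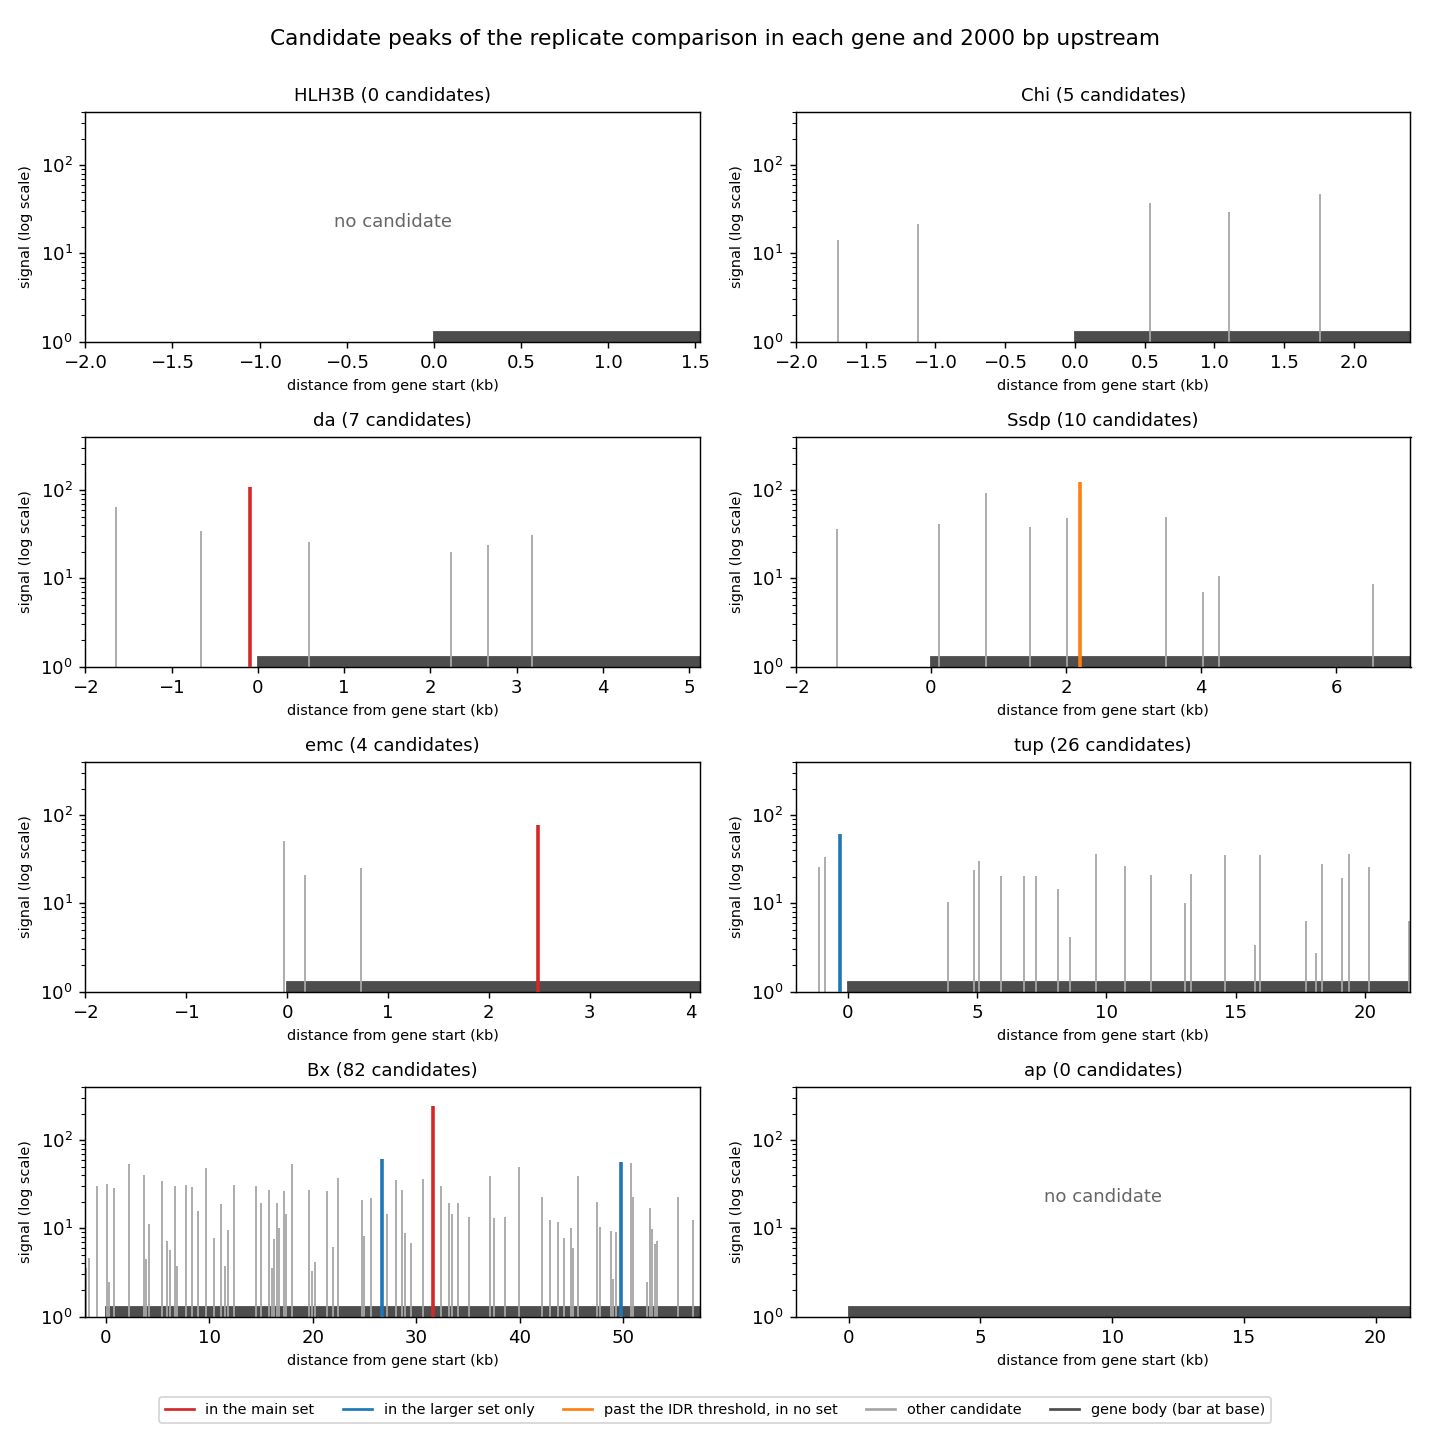
Each panel shows 1 gene with its 2000 bp upstream, with distance from the gene's start in kb on the horizontal axis and the signal of each candidate peak of the main list on a log scale on the vertical axis. Red lines are main-set sites (da, emc and Bx), blue lines are sites of the larger set only (tup and 2 in Bx), the orange line is the Ssdp candidate that passed the threshold but is in no set, and HLH3B and ap are empty.

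Bx had the strongest candidate of the 8 genes in both replicates, at 0.959% from the top of the list in replicate 1 and 0.983% in replicate 2. The order below it differed between them, and none of these ranks allows for gene length. In replicate 1 Ssdp followed at 2.25%, then da at 3.34%, emc at 4.07%, tup at 9.61%, ap at 15.2%, Chi at 15.4% and HLH3B at 35.7%. In replicate 2 da, Ssdp and emc lay close together, at 3.80%, 4.03% and 4.04%, and Chi stood above tup, at 7.96% against 10.9%. For emc, tup and Chi these ranks belong to different positions in the 2 replicates. That of emc lay 62 bp upstream of the start in replicate 1 and 2529 bp downstream in replicate 2. That of tup lay 14582 and 9561 bp downstream, and 301 bp upstream in the main list. The main and larger lists hold the same signals for 6 of the members and draw on both replicates, so their order is no further repeat; in the main list Bx stood at 0.927%, Ssdp at 2.53%, da at 3.02%, emc at 4.60% and tup at 6.23%, with Chi last at rank 9086.

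**Figure D3:**
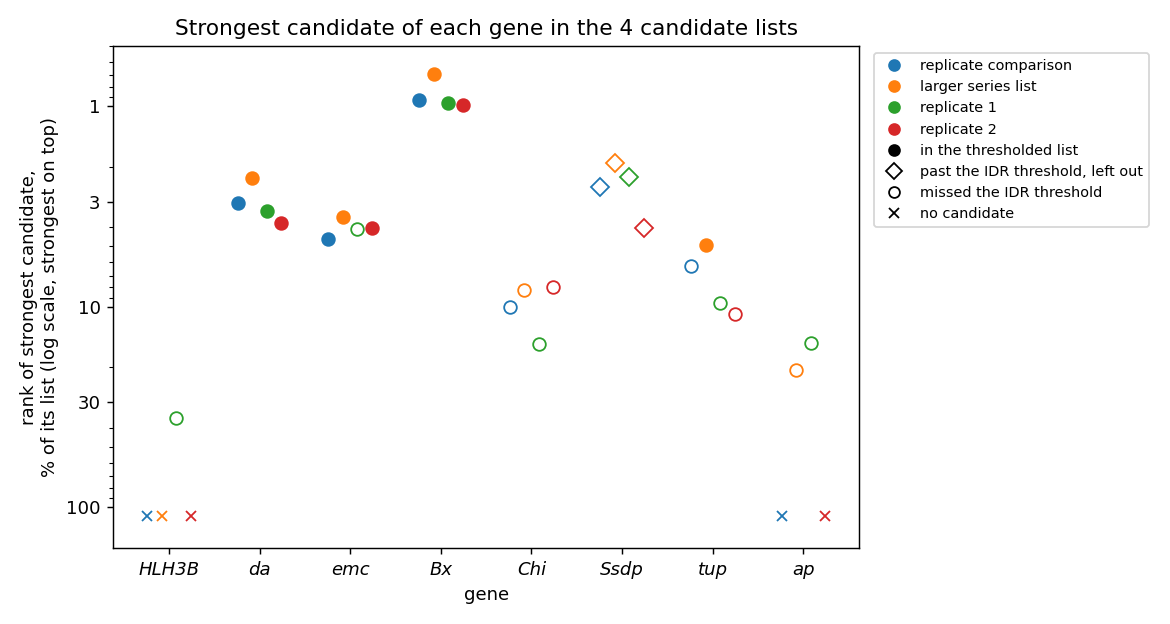
The vertical axis gives the rank of each gene's strongest candidate as a percentage of its list, on a log scale with the strongest at the top, for the main list, the larger list and both replicates. Filled circles are in the matching thresholded list, diamonds passed the IDR threshold but were left out, open circles missed it, and crosses mark lists without a candidate; Bx lies near 1% throughout, and the 4 Ssdp diamonds lie between 1.91% and 4.03%.

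None of the motifs searched was present in all of the printed windows. E-boxes were present within 100 bp of the emc and tup summits and of the Ssdp candidate, with 2 each at emc and tup, and 59.2% of all main-set windows of this width held at least 1. Bx, the strongest, had none there and held 2 GATA motifs, 57 bp before and 60 bp after the summit, where 36.8% of main-set windows held at least 1 and 9.57% at least 2. The textbook Tal1-type E-box CAGATG was in none of the 4 printed windows, and 6.29% of main-set windows held it. None of the 4 held CTG and GATA at a spacing of 7 to 9 bp, on either strand in that order, which 5.07% of main-set windows did.

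The emc and tup windows were rich in G+C, and those of Bx and Ssdp were not. Over all main-set windows of the same width the median G+C content was 34.3%, with quartiles of 30.3 and 38.8%. The Bx window had 33.3% and the Ssdp candidate 33.8%, close to the median. The emc window had 47.8%, at or above 94.3% of main-set windows, and the tup window had 58.7%, at or above 99.5%. These are 4 windows, and no relation to signal was tested in them. In the main set the stronger 1923 sites had a median of 33.8% and the weaker 1923 a median of 35.3%.

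The density of CAGATG over whole gene windows was compared next. HLH3B, without a site, had the densest CAGATG, with 4 in its 3525 bp window (1.13 per kb), which 8.07% of all genes reached. The called genes da, emc and Bx had 0.561, 0.492 and 0.455 per kb, close to the median of 0.481 over all genes. The uncalled Chi and Ssdp had 0.454 and 0.439, and tup and ap had 0.253 and 0.3.

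Related genes were listed by name and called by the same rule. Of 6 GATA and Friend-of-GATA genes 3 had a main-set site, with 20.3% of all genes as the background. They were ush, whose product binds GATA factors (9 sites, strongest signal 349), the GATA gene grn (signal 103) and srp, a GATA gene of blood and fat body (signal 81.5). The weakest ush site (signal 2.4) overlapped another of signal 128. Several ush sites lay nearest to starts of the non-coding RNA genes lncRNA:CR46258 and lncRNA:CR46259. The srp site was in neither replicate's own set. Of 5 further LIM-homeodomain genes 3 had a site, namely Lim1 (2 sites, strongest signal 181), Awh (2 sites, strongest signal 125) and Lim3 (signal 77.7), the last again in neither replicate's set. These genes were long, with a median of 16.8 kb in the GATA list and 15.5 kb in the LIM list against 1.66 kb over all genes. Of all genes between 10 and 50 kb 46.4% had a main-set site, so both counts were near the share of genes of such length.

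Of 21 genes for tissue-restricted bHLH proteins, the class that pairs with da, 2 had a main-set site, against 20.3% of all genes. They were tx (signal 114) and the mesoderm gene twi (signal 92.7), both called in replicate 1 and not in replicate 2. The annotated twi spans 63.0 kb, and 59.2% of genes over 50 kb had a site. The start nearest to the twi site was that of CG9896, 4407 bp away. The other 19 had none, and 6 of the 21 held no candidate in the main list, as did 4731 of the 18164 genes. The median length of the 21 was 2.13 kb, and 12.4% of genes under 2 kb and 24.6% of those between 2 and 10 kb had a site. Chi and Ssdp also act with the Wnt enhanceosome. Of 6 of its genes, with a median length of 8.71 kb, 2 had sites. The shares beside this are 20.3% of all genes and 24.6% of genes between 2 and 10 kb. The called genes were osa and gro. The gene osa, for a subunit of a chromatin remodeller, had signals of 961 and 887. They lay near starts of the non-coding RNA genes lncRNA:CR46035 and lncRNA:CR46036. The corepressor gene gro had signals of 498 and 152 close to its own start. Both osa and gro were called in both replicates.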

How the data were processed

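The authors deposited peak lists on assembly dm6, per the labels, from 2 biological replicates: 4 thresholded sets and 4 ranked candidate lists. Chromatin was sonicated to 200 to 800 bp, per the labels. The deposited score is a whole number that rescales the IDR, and the lowest score in the 4 sets was taken as the threshold for candidates. The signal is the authors' value, its scale is not stated, and it served for ranks within a list. The deposited −log10 of the global IDR was turned back into an IDR. Aligner and peak caller were not given in the sources used here. Library depth is unknown, since the lists hold no read counts.

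Peaks on arms 2L, 2R, 3L, 3R, 4 and X were placed on genes of Ensembl release 115 (BDGP6.54, dm6 coordinates) without transposable elements. A replicate peak matched a site when the summits lay within 100 bp. Sequence came from the RefSeq Release 6 genome. The sequence at the da site is not reported here. The intervals on shares of genes are Wilson's at 95% and describe counting error alone. The named genes are all 8 members, for each related list its called genes, and the genes nearest to their sites. Of 38 related genes 1 was matched through its current symbol. The members, lists and rules were chosen with earlier results of these data known. The assignment of summits to genes was tested on simulated data. Alternatives covered other sets, each replicate alone, the stronger part of the main set, other windows and overlaps, and assignment to the nearest start. Python 3.11.15, numpy 2.4.6, pandas 2.3.3, scipy 1.17.1 and matplotlib 3.10.9 were used.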

Additional observations from a re-analysis of the deposited data

Results flagged for a closer look

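Signal appeared at Ssdp in candidate lists that the gene calls do not use. The intronic candidate with its summit at 18197383 on 3R had a signal of 125 and passed the IDR threshold in all 4 candidate lists, and the candidate at 18198775, in the 5′ UTR, had a signal of 93.8 and passed it in the larger list and in replicate 1. The second missed the threshold in the main list (IDR 0.793), and replicate 2 listed no candidate near that place. Neither candidate is in a thresholded set, and whether the further file used for those sets removed them was not tested. The left-out share of passing candidates was 1.81% in the main list, 2.14% in the larger list, 2.63% in replicate 1 and 2.28% in replicate 2.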

How the results depend on the processing

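A count or share was taken as close when within 1.5 times the reported one, and a rank or distance when within 1 SD of the replicates, which is a few bp for some distances and many kb for ap; by that measure 50 of 76 alternative values were close. The number of members with a site was 1 (Bx) with the stronger part of the main set and 6 with any main candidate, it was 2 (emc and Bx, without da) with no upstream window, and it was 2 to 3 without either replicate. The share of all genes with a site was 12.7% with the stronger part of the main set, 8.61% without the upstream window and 19.7 to 20.7% without either replicate. The count of bound GATA genes was 1 and of LIM genes 1 with the stronger part of the main set, and without either replicate they were 2 to 3 and 2. The count of bHLH genes was 4 with the larger set, 0 with the stronger part of the main set, 1 with the nearest start and 1 to 3 without either replicate; the Wnt count was 1 with the nearest start and 2 to 3 without either replicate. The rank of the strongest candidate was 2830 for da and 4405 for emc in the larger list, and in the single replicates 3126 to 3266 for da, 3479 to 3807 for emc and 846 to 897 for Bx. The distance from the window to the nearest summit was 2678 bp for Chi, 0 bp for tup and 244970 bp for ap in the larger set. In the single replicates it was 20161 to 20167 bp for HLH3B, 2678 to 3067 bp for Chi, 3511 to 3520 bp for Ssdp, 1691 to 1697 bp for tup and 244972 to 347148 bp for ap. The reported ranks are in the main set, these are in candidate lists of other lengths, and in the main candidate list they were 2731 for da, 4158 for emc and 839 for Bx. The replicate 1 rank of emc belongs to another position, 62 bp upstream of its start. The cause of these differences was not tested. No paired analysis was possible because there was 1 group.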
